A study of Mus musculus with 16 samples.

Results

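Class switch recombination replaces the constant region of an antibody heavy chain, and it relies on DNA repair proteins that turn uracils in DNA into double-strand breaks and then join the breaks. Of these repair proteins, 7 were followed here through their genes: Ung and Apex1 of base excision, Msh6, Pms2 and Exo1 of mismatch repair, and Trp53bp1 and Lig4 of break protection and joining. Every array feature (probe) other than a control that carried one of these names was taken, whatever its signal. That gave 9 probes of 55681, for 7 of 34821 gene names, with a pair of probes each for Pms2 and Trp53bp1. The same 9 probes were found in the files of all 16 arrays, all 9 were well above background on every array, and none of their spots was flagged or saturated.

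The samples were total RNA of splenic B cells taken on beads coated with an antibody to B220, which marks the B cell surface, and hybridised singly to one-colour (Cy3) Agilent mouse arrays. The 3'RR-deficient mice lack the regulatory region downstream of the immunoglobulin heavy chain genes. Per the labels, it was the IgH allele of strain 129 that was knocked out, on a background given as BALBC, and the strain entry of these mice is BALBC, whereas the strain entry of the wild-type mice is 129, so genotype and strain cannot be told apart in any comparison below. Groups of 4 arrays each were compared, deficient and wild type on slide 1 and deficient and wild type on slide 2. Each sample was 0.2 µg of RNA with a RIN, a score of RNA integrity, of 9, and no treatment or age is named. Although the series text counts 4 mice in each genotype, there were 8 arrays of each, and the labels do not tell whether any arrays share a mouse, so the p-values measure only how these samples scatter, and some of that scatter may be technical. What else set the samples of slide 1 apart from those of slide 2 is not given in the sources used here, and slide and sample origin cannot be told apart.

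In class switching, cytosines of switch regions are first converted to uracil. The uracil glycosylase Ung removes the uracil and the endonuclease Apex1 nicks the abasic site, while Msh6 acts in recognising the mismatch, Pms2 in nicking the DNA nearby, and the exonuclease Exo1 resects from the nick. Trp53bp1 shields the broken ends from resection, and Lig4, held by Xrcc4, seals them.

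The probe sequences bear on how each value can be read. The only Ung probe (chr5:114588731-114588790, mm9, plus strand) holds a run of alternating G and T of 34 bases in its 60. A stretch of 30 of its bases is shown with that of the 3 probes whose signal followed it most closely over the arrays, with the repeat in capitals:

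Ung: atttcaaaGTGTGTGTGTGTGTGTGTGTGT
Tmem239: caatcatgataGTGTGTGTGTGTGTGTGTG
Ephb3: gccagagacTGTGTGTGTGTGTGTGTGTGT
Zcchc9: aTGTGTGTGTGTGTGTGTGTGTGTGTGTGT

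All 4 windows run from base 19 to base 48 of the probe. The longest GT run of the Tmem239 probe is 31 bases, that of Ephb3 33 bases and that of Zcchc9 41 bases. Among the other members no probe has a GT run of more than 4 bases. For comparison, bases 16 to 45 of the probes of Lig4 (chr8:9970290-9970349, mm9, minus strand), Exo1 (chr1:177838682-177838741, mm9, plus strand) and Msh6 (chr17:88390143-88390202, mm9, plus strand), the whole probe of Apex1 (chr14:51546483-51546542, mm9, plus strand) and bases 21 to 50 of the dimmer Trp53bp1 probe (chr2:121022706-121022765, mm9, minus strand), which holds the letters of a polyadenylation signal in capitals, read:

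Lig4: cttgtctcctatcgatgatccattgcgtag
Exo1: gtgcagaccgttgcctacaagaaaatctta
Msh6: gctgagctgacttttgaaaaaggtggtaaa
Apex1: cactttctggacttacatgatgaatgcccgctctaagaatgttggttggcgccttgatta
Trp53bp1: ggaatatagtaagtgttcAATAAAccccgg

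Whether the probes lie in coding sequence or in an untranslated region is not given in the sources used here. The brighter Trp53bp1 probe (chr2:121024792-121024851, mm9) and both Pms2 probes (chr5:144692034-144692093 and chr5:144689834-144689893, mm9) likewise hold no GT run longer than 4 bases.

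Over both slides, 1 of the 9 member probes differed between genotypes, that of Ung, which was 1.30-fold lower in deficient cells. On slide 2 the probe of Lig4 was 1.47-fold lower in deficient cells, and this difference was not shared by slide 1. The probes of Apex1, Msh6, Pms2, Exo1 and Trp53bp1 did not pass the threshold in any genotype comparison. Between the slides the differences were much larger: Exo1 was 15.0-fold, Apex1 4.19-fold and Msh6 2.81-fold higher on slide 2 than on slide 1. Levels are given as the log2 signal relative to the 75th percentile of the array, differences are on the same log2 scale, and every adjusted p is that of limma with Benjamini-Hochberg adjustment over 32881 probes, read against a threshold of 0.05.

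These counts are set against all probes tested. Over both slides 16.8% of the 32881 probes passed the threshold, on slide 1 23.3%, on slide 2 7.46%, and 13.9% differed between the slides in their genotype difference. Of 9 member probes 1 passed in each of these 4 comparisons, a share near that of all probes. Of the calls over both slides 45.1% were higher in deficient cells, and 59.8% with the median of each array as its scale instead. On slide 2 the same change of scale moved this share from 48.9% to 65.4%. For the difference between the slides the share of higher calls was 62.9%, and 48.1% after quantile normalization.

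**Figure D1:**
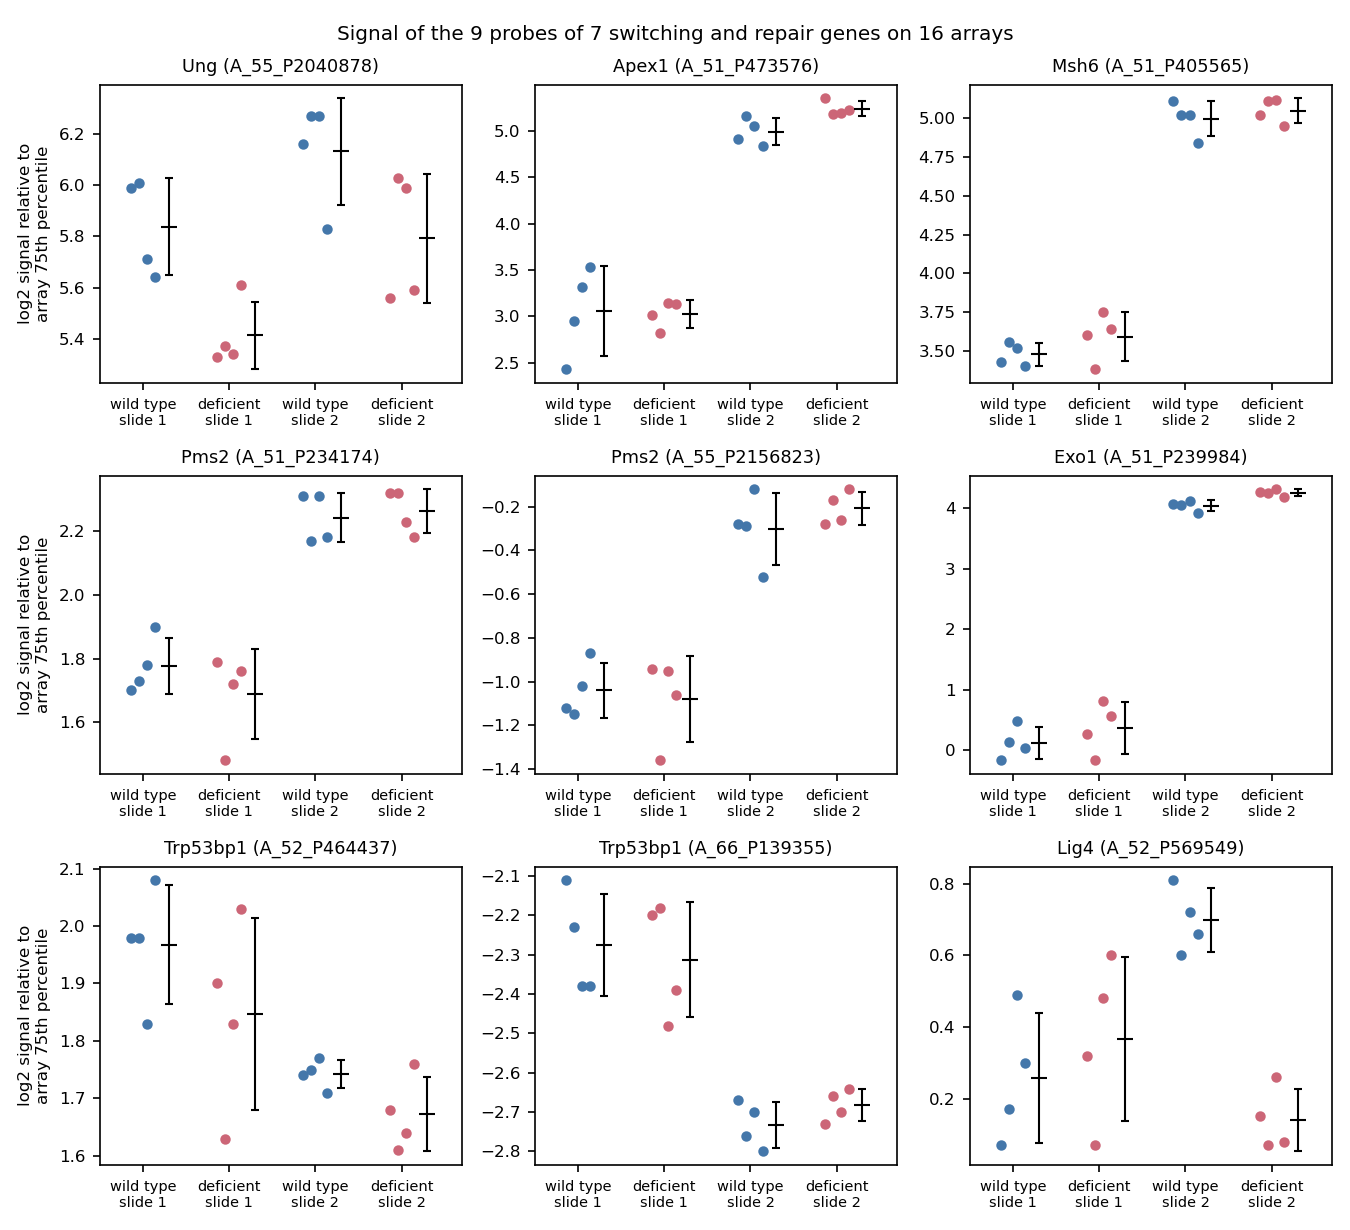
Log2 signal relative to the array's 75th percentile (vertical axes, each with its own range) of the 9 member probes on 16 arrays, in the 4 groups of genotype and slide. Points are arrays, and bars show the mean and SD of 4 arrays. Exo1, Apex1, Msh6, both Pms2 probes and the dimmer Trp53bp1 probe sit in separate ranges on the 2 slides. Only Lig4 on slide 2 and Ung on slide 1 have a called genotype difference within a slide.

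Ung, the uracil glycosylase, is the first member of the base excision branch. On slide 1 its log2 level was 5.33, 5.37, 5.34 and 5.61 on the deficient arrays and 5.99, 6.01, 5.71 and 5.64 on the wild-type arrays. The 2 genotypes did not overlap there, although the highest deficient array and the lowest wild-type array lay close together. On slide 2 the level was 5.56, 6.03, 5.99 and 5.59 on the deficient arrays and 6.16, 6.27, 6.27 and 5.83 on the wild-type arrays. Here the lowest wild-type array fell inside the deficient range. The difference was -0.42 on slide 1 (SE 0.14, limma adjusted p = 0.0447), -0.34 on slide 2 (SE 0.14, limma adjusted p = 0.178) and -0.38 over both (SE 0.10, limma adjusted p = 0.0187). The differences on the 2 slides themselves differed by 0.08 (SE 0.20, limma adjusted p = 0.818). The slide 1 call was lost under several other settings, among them scaling by the median (-0.42, limma adjusted p = 0.0573) and leaving out any one of deficient replicates 9, 10 and 11 or wild-type replicates 2, 5 and 6 of slide 1 or wild-type replicates 1, 2 and 3 of slide 2, with values between -0.47 and -0.36. The call over both slides was kept in all 28 alternatives, between -0.43 and -0.34.

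The Ung probe moved from array to array together with the other probes that hold a GT repeat. Of 36 probes on the array with a GT run of at least 24 bases, 35 are others than that of Ung, they stand for 35 genes, and all 35 were kept. After the mean of each slide was subtracted, their Pearson r with the Ung probe over 16 arrays had a median of 0.991 and ran from 0.947 to 0.995, against a median of 0.052 for the 32706 other probes without missing values. With the mean of each of the 4 groups subtracted, which leaves no genotype difference, r still ran from 0.901 to 0.992 with a median of 0.982. All 35 were lower in deficient cells over both slides and all 35 passed the threshold, with a median difference of -0.35 beside the -0.38 of Ung, whereas 9.13% of the other probes were called lower. Their median difference was -0.38 on slide 1 and -0.32 on slide 2. The 11 probes with a CA run of the same length, the complementary letters, had r between -0.802 and -0.446 with the Ung probe, a median difference of 0.30, and none was called (limma adjusted p, 0 of 11 over both slides). Of the 20 genes most like Ung by their brightest probe, 16 had a GT run of at least 24 bases. This set was put together after the values of Ung had been seen, so it is a description of these arrays and carries no test. The arrays hold no second probe that would read Ung apart from the repeat, so the value measured is the signal of this probe, and how much of it comes from Ung transcripts was not tested.

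**Figure D2:**
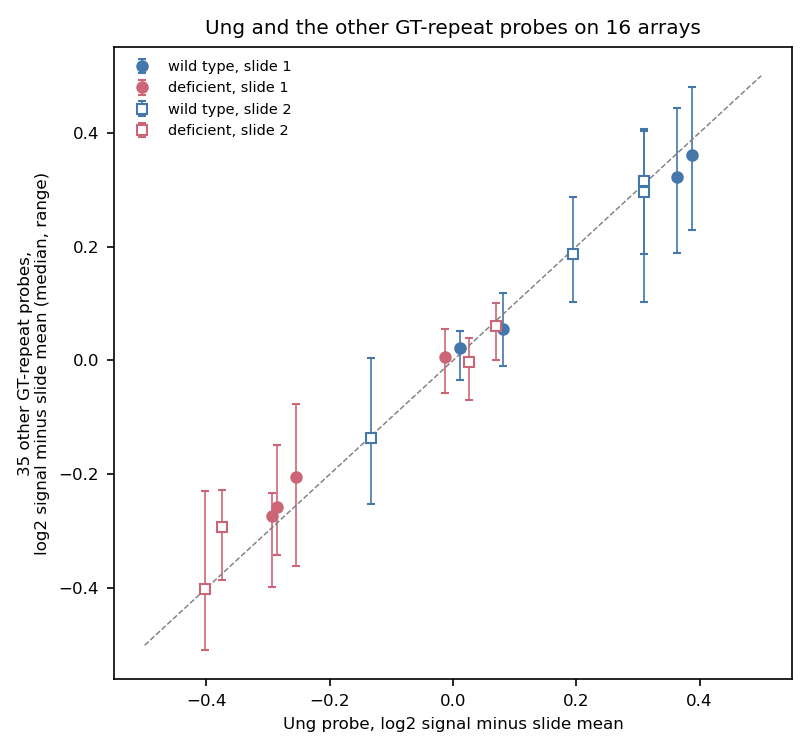
Horizontal axis, log2 signal of the Ung probe minus the mean of its slide; vertical axis, the same for the 35 other probes with a GT run of at least 24 bases, as median (point) and range (bar), for 16 arrays. The points follow the dashed line of equality from -0.40 to 0.36, and the deficient arrays lie mostly low and the wild-type arrays mostly high on both axes.

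Apex1, the abasic site endonuclease, had a log2 level of 3.02, 2.82, 3.14 and 3.13 on the deficient arrays of slide 1 and of 2.43, 2.95, 3.32 and 3.53 on the wild-type arrays. On slide 1 the wild-type arrays spread over more than 1 log2 unit and enclosed the deficient ones. On slide 2 it was 5.35, 5.18, 5.19 and 5.22 on the deficient and 4.91, 5.16, 5.05 and 4.83 on the wild-type arrays. All deficient arrays of slide 2 were above all wild-type arrays of that slide. The difference there was 0.25 (SE 0.18, 95% interval -0.14 to 0.64, limma adjusted p = 0.488), and on slide 1 it was -0.03 (SE 0.18, limma adjusted p = 0.928). Over both slides it came to 0.11 (SE 0.13, limma adjusted p = 0.614).

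Msh6, which acts in mismatch recognition, varied little within a slide. Its deficient arrays of slide 1 read 3.60, 3.38, 3.75 and 3.64 and its wild-type arrays 3.43, 3.56, 3.52 and 3.40 (log2 level). On slide 2 the deficient arrays read 5.02, 5.11, 5.12 and 4.95 and the wild-type arrays 5.11, 5.02, 5.02 and 4.84. The genotypes overlapped on both slides, and the difference over both was 0.08 (SE 0.06, 95% interval -0.05 to 0.22, limma adjusted p = 0.395). Pms2, a nuclease subunit of mismatch repair, was read by a bright and a dim probe. The arrays of slide 1 ranged from 1.48 to 1.90 on the bright probe and those of slide 2 from 2.17 to 2.32. On the dim probe slide 1 ranged from -1.36 to -0.87 and slide 2 from -0.52 to -0.12. The genotypes overlapped on both probes, with differences over both slides of -0.03 (SE 0.06, limma adjusted p = 0.752) and 0.03 (SE 0.08, limma adjusted p = 0.852). With slide means removed, the 2 probes had r = 0.72 over 16 arrays.

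Exo1, the exonuclease that resects from the mismatch nick, read 0.26, -0.17, 0.82 and 0.57 on the deficient arrays of slide 1 and -0.17, 0.13, 0.48 and 0.04 on the wild-type arrays (log2 level). On slide 2 it read 4.27, 4.26, 4.32 and 4.19 on the deficient and 4.08, 4.05, 4.13 and 3.92 on the wild-type arrays. Every deficient array of slide 2 lay above every wild-type array of that slide, while on slide 1 the groups overlapped. The difference was 0.25 on slide 1 (SE 0.18, limma adjusted p = 0.322), 0.21 on slide 2 (SE 0.18, limma adjusted p = 0.563) and 0.23 over both (SE 0.12, 95% interval -0.04 to 0.50, limma adjusted p = 0.238). Without deficient slide 1 replicate 11, the lowest deficient array, the value over both slides was 0.32 and passed (limma adjusted p = 0.0446). Of the markers of cycling cells, 4 of 19 were higher in deficient cells by the test over both slides (median difference 0.30) and none lower. Of all probes 7.58% were called higher there, and of all genes 17.1% were called in either direction. On slide 1, 7 of 19 were higher (median 0.52) and none lower, beside 9.18% of all probes higher and 24% of all genes in either direction. Ccna2 was at 0.60 (SE 0.18, limma adjusted p = 0.0375) and Top2a at 0.55 (SE 0.17, limma adjusted p = 0.0455) over both slides. On slide 2 limma called neither Exo1 nor any of the 19 markers (median 0.14). By array values the genotypes were apart there for Exo1 and for the mean log2 level of the markers. That mean ran from 4.65 to 4.80 on the deficient and from 4.55 to 4.62 on the wild-type arrays of slide 2. The part of the cycling cell markers in the Exo1 values was not tested.

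Trp53bp1, which protects break ends, was read by a bright and a dim probe with no genotype call on either. The bright probe gave 1.90, 1.63, 1.83 and 2.03 on the deficient and 1.98, 1.98, 1.83 and 2.08 on the wild-type arrays of slide 1 (log2 level). On slide 2 it gave 1.68, 1.61, 1.64 and 1.76 against 1.74, 1.75, 1.77 and 1.71. The groups overlapped on both slides, and the difference over both was -0.10 (SE 0.06, 95% interval -0.22 to 0.03, limma adjusted p = 0.31). The dim probe, which starts at base 7408 of its target against base 5690 for the bright one, differed by 0.01 (SE 0.06, limma adjusted p = 0.956). With slide means removed the probes had r = -0.13 over 16 arrays, so within a slide they did not rank the arrays alike.

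Lig4, the ligase of nonhomologous end joining, read 0.32, 0.07, 0.48 and 0.60 on the deficient and 0.07, 0.17, 0.49 and 0.30 on the wild-type arrays of slide 1 (log2 level). On slide 2 it read 0.15, 0.07, 0.26 and 0.08 on the deficient and 0.81, 0.60, 0.72 and 0.66 on the wild-type arrays. The genotypes were apart on slide 2, where the highest deficient array lay well below the lowest wild-type array, and they were mixed on slide 1. The difference was -0.55 on slide 2 (SE 0.12, limma adjusted p = 0.0093) and 0.11 on slide 1 (SE 0.12, limma adjusted p = 0.524). The test of the difference between the slides gave -0.66 (SE 0.16, limma adjusted p = 0.0188), and over both slides the value was -0.22 (SE 0.08, limma adjusted p = 0.081). Scaling by the median ended both calls, at -0.47 on slide 2 (limma adjusted p = 0.0584) and -0.58 between the slides (limma adjusted p = 0.0679), while leaving out any single array ended neither. A block for replicate number, fitted on replicates 1, 2 and 3 of slide 2 alone, also ended the slide 2 call (-0.55, limma adjusted p = 0.0505). Over both slides Lig4 passed in 4 of 28 alternatives. These were the fit without deficient slide 1 replicate 12 (-0.26, limma adjusted p = 0.0414) and normexp background correction (-0.22, limma adjusted p = 0.0458). The others were array weights (-0.25, limma adjusted p = 0.0342) and the authors' value table (-0.25, limma adjusted p = 0.0298).

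**Figure D3:**
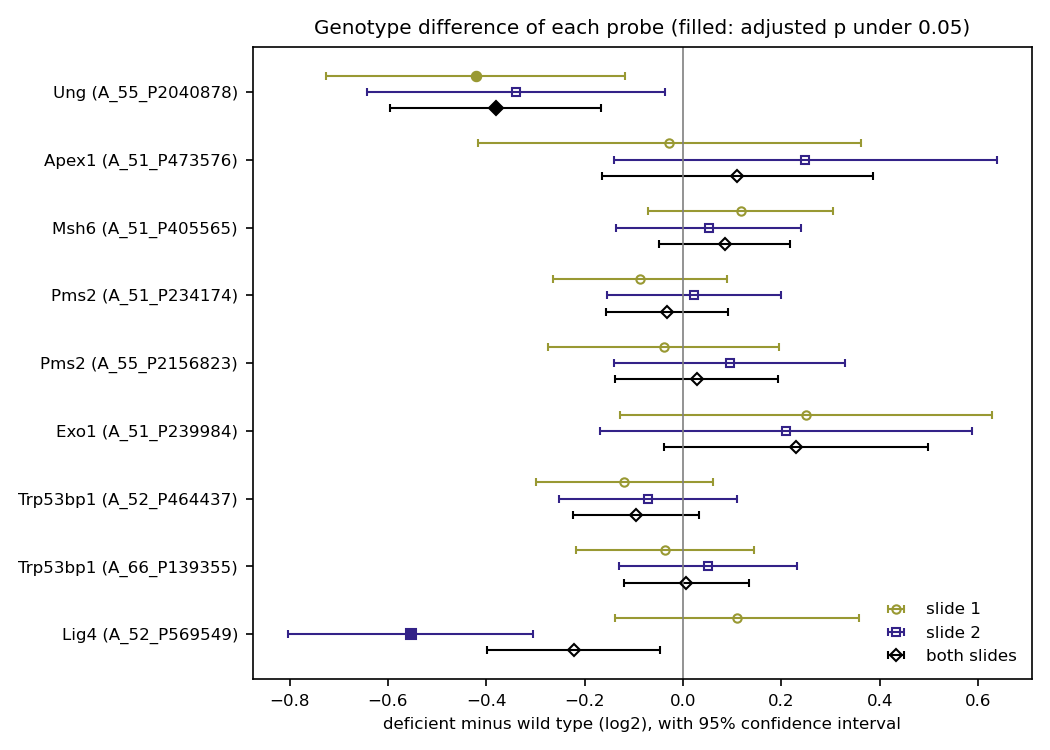
Log2 difference, deficient minus wild type (horizontal axis), for each member probe on slide 1, on slide 2 and over both, with the 95% confidence interval of the limma fit (4 arrays per group). Filled symbols passed the threshold: Ung at -0.42 on slide 1 and -0.38 over both, and Lig4 at -0.55 on slide 2.

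By array values alone, the deficient and wild-type arrays did not overlap for 1 of 9 member probes on slide 1 (Ung, lower) and for 3 of 9 on slide 2 (Apex1 and Exo1, higher, and Lig4, lower). Among all probes without missing values, this held for 21.6% on slide 1 and 22.8% on slide 2.

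Plasma cell markers were lower in deficient cells on slide 2, as Lig4 was, with 3 of 8 past the threshold and none higher, at a median difference of -0.75. Of all probes 3.82% were called lower on that slide. Sdc1, a surface proteoglycan of plasma cells, was at -1.42 (SE 0.28, limma adjusted p = 0.00666). Tnfrsf17, a receptor of plasma cells, was not well above background on any deficient array of slide 2, so its level there is a bound. The bound was set on each array at its own signal or that of the dimmest probe clearly over background, whichever was higher. By it Tnfrsf17 was at least 2.58-fold lower. The test used the values without the bound (limma adjusted p = 0.00363). The mean log2 level of the 8 markers ran from 1.81 to 2.29 on the deficient and from 2.67 to 3.19 on the wild-type arrays. On slide 1 it ran from 2.85 to 3.76 on the deficient and from 2.45 to 2.93 on the wild-type arrays. There 2 of 8 markers were higher and 1 lower, beside 9.18% of all probes higher and 14.1% lower. On slide 2, 3 of 10 T cell markers and 2 of 7 erythroid and platelet markers were higher in deficient cells, beside 3.65% of all probes. The mean log2 level of the T cell markers ran from -2.03 to -1.66 on the deficient and from -2.30 to -2.20 on the wild-type arrays. That mean includes probes not well above background on some slide 2 arrays, and 1 of the 3 called, Cd3g, was well above background on none. The mean log2 level of the erythroid and platelet markers ran from -2.98 to -0.76 on the deficient and from -4.50 to -4.30 on the wild-type arrays. It too includes probes not well above background on some slide 2 arrays. The globin gene Hba-a1 was at 4.93 (limma adjusted p = 0.000107). Hbb-b1, not well above background on any wild-type array of slide 2, was at least 33.6-fold higher by the same kind of bound. Its test, too, used the values without the bound (limma adjusted p = 1.79e-05). The part of any of these in the Lig4 difference was not tested, and in such bulk samples fewer cells of a type and less RNA per cell cannot be told apart. All 11 B cell markers were well above background on all 16 arrays. On slide 2, 2 of 11 were higher in deficient cells and none lower (median difference 0.16). Their mean log2 level there ran from 4.39 to 4.65 on the deficient and from 4.17 to 4.31 on the wild-type arrays. On slide 1, 4 of 11 were lower and none higher (median difference -0.11). The part of the B cell markers in the Lig4 difference was not tested either.

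The rest of the pathway was read through lists that hold 91 other genes, 88 of them measured, each by its brightest probe. Over both slides 9 of the 88 were higher and 7 lower in deficient cells, 18.2% beside 17.1% of all 22735 genes. Their median difference was 0.01, beside -0.03 for all genes. On slide 1, 3 were higher and 11 lower, 15.9% beside 24% of all genes, and on slide 2, 6 were higher and 2 lower, 9.09% beside 7.88%. None of these shares was tested against the other genes.

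By branch, 1 of 15 measured genes of access to switch regions was called over both slides, the GTP-binding protein gene Gtpbp1 (0.36, SE 0.07, limma adjusted p = 0.00227). In base excision and single-strand break repair 1 of 17 was higher and 3 were lower. Among them the glycosylase genes Neil1 and Nthl1 were both at -0.38 (SE 0.11 and 0.12, limma adjusted p = 0.0332 and 0.0419), and the scaffold gene Xrcc1 was at 0.22 (SE 0.06, limma adjusted p = 0.0244). Neil1 was lower on slide 2 alone by the test (-0.90, SE 0.16, limma adjusted p = 0.00296), and its difference between the slides was -1.04 (SE 0.23, limma adjusted p = 0.0107). In mismatch repair 2 of 14 were higher and 2 lower, with the sliding clamp gene Pcna at -0.29 (SE 0.06, limma adjusted p = 0.00516) and Mlh3 at -0.17 (SE 0.05, limma adjusted p = 0.046).

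In the break response 3 of 21 were higher and 1 was lower. The kinase gene Atm was at 0.74 (SE 0.13, limma adjusted p = 0.0021) and at 1.08 on slide 2 (SE 0.19, limma adjusted p = 0.00292), and both of its probes were called higher. Mad2l2, a shieldin subunit that acts downstream of Trp53bp1, was at 0.39 (SE 0.07, limma adjusted p = 0.00284) by its brighter probe, but its other probe went the other way and their mean was at 0.02 (limma adjusted p = 0.933). The resection factor gene Rbbp8 was at 0.36 (SE 0.10, limma adjusted p = 0.0214). Of 12 measured end joining genes, none was called over both slides by its brightest probe, and on slide 1, 3 were lower. Of the 4 probes of Dclre1c, 1 that is not the brightest was called lower over both slides. Of this list Xrcc4, which holds Lig4, was at 0.05 over both slides (SE 0.07, limma adjusted p = 0.631). In homologous recombination 2 of 10 were higher and 1 was lower, with Xrcc3 at 0.34 (SE 0.10, limma adjusted p = 0.0406), Rad51c at -0.32 (SE 0.10, limma adjusted p = 0.0402) and Brca2 at 0.27 (SE 0.07, limma adjusted p = 0.0219). The calls of Neil1, Nthl1, Mlh3, Rad51c and Xrcc3 were each lost without some single arrays, with limma adjusted p up to 0.0937, while those of Gtpbp1, Atm, Mad2l2, Rbbp8, Pcna, Xrcc1 and Brca2 were kept in every such fit. With slide as a random block Rbbp8, Pcna and Brca2 lost theirs (limma adjusted p = 0.0746, 0.152 and 0.153).

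Between the slides, averaged over the genotypes, 8 of 9 member probes differed, 6 higher and 2 lower on slide 2, beside 53.2% of all probes higher and 28.3% lower. The median of all probes was itself shifted by 0.37 at this scaling and by 0.03 with median scaling, so slide differences are best read against that shift. Of the calls 65.3% were higher on slide 2, and 51.1% with median scaling. Exo1 differed by 3.91 (SE 0.12, limma adjusted p = 1.44e-12), Apex1 by 2.07 (SE 0.13, limma adjusted p = 1.36e-09) and Msh6 by 1.49 (SE 0.06, limma adjusted p = 1.77e-11). For all 3 of these genes, and for both Pms2 probes, every array of slide 2 lay above every array of slide 1. For the dimmer Trp53bp1 probe every array of slide 2 lay below. The share of all probes that were apart in this way was not counted, while 81.5% passed the slide test in either direction. The Pms2 probes differed by 0.52 and 0.80 (SE 0.06 and 0.08), both above the shift. Ung differed by 0.34 (SE 0.10, limma adjusted p = 0.00607), no more than the shift, and by -0.13 after quantile normalization. The Trp53bp1 probes differed by -0.20 and -0.41 (SE 0.06 and 0.06), below the shift. Lig4 differed by 0.11 (SE 0.08, limma adjusted p = 0.239), and by -0.23 with median scaling. In the order of group means, Exo1 and Msh6 went from wild type on slide 1 through deficient on slide 1 and wild type on slide 2 to deficient on slide 2, and Apex1 did so with the first 2 exchanged, and genotypes on 1 slide never differed by the test. Lig4 was highest in wild type on slide 2, and the ranges of the other 3 groups overlapped one another.

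**Figure D4:**
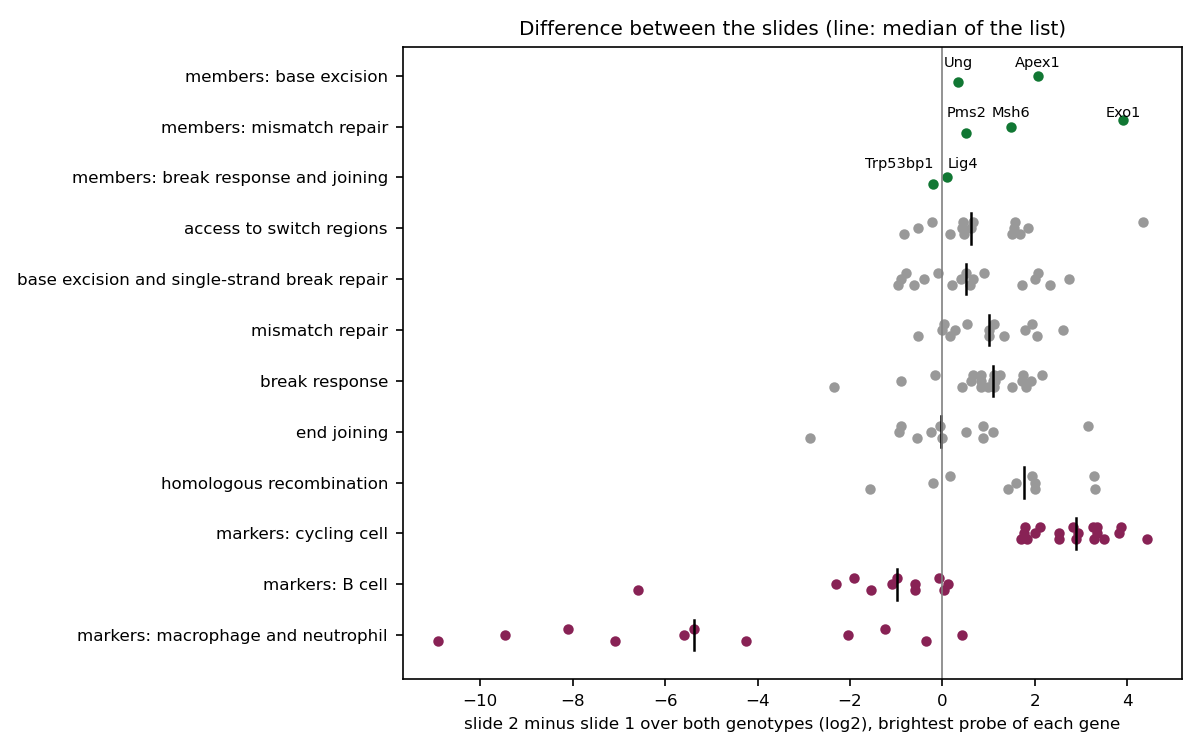
Slide 2 minus slide 1 over both genotypes on the log2 scale (horizontal axis) for the 7 member genes (green, named), the other pathway genes by list (grey) and markers of cycling, B and myeloid cells (purple), each gene by its brightest probe. Lines mark list medians, from 2.89 for cycling cell markers to -5.37 for macrophage and neutrophil markers.

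Of the 88 measured other pathway genes, 64 were higher on slide 2 and 18 were lower, 93.2% beside 82.3% of all genes, with a median difference of 0.84 beside 0.38 for all genes. The medians were 1.77 for homologous recombination, 1.09 for the break response, 1.00 for mismatch repair, 0.51 for base excision and -0.03 for end joining. Xrcc4 differed by 1.09 (SE 0.07, limma adjusted p = 1.13e-09). All 19 measured cycling cell markers were higher on slide 2, with a median of 2.89, and their mean log2 level ran from 1.25 to 2.47 on slide 1 arrays and from 4.55 to 4.80 on slide 2 arrays. Of 11 macrophage and neutrophil markers 10 were lower on slide 2, with a median of -5.37 that includes probes not well above background on some arrays, and of 11 B cell markers 8 were lower, with a median of -0.97. The part of these in the member differences was not tested.

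Members were also compared by how they varied within slides. With slide means removed, the 3 probes most like that of Exo1 included those of Mad2l1 (r = 0.971), a spindle checkpoint gene, and E2f1 (r = 0.947), a transcription factor of the cell cycle, among 22655 genes over 16 arrays. Msh6 was most like Gng12 (r = 0.893), Dtl (r = 0.879) and Cenph (r = 0.878), and its r with Exo1 was 0.811, the highest among the members. Apex1 was most like Rwdd2b (r = 0.942), an unnamed transcript (r = 0.933) and the proteasome subunit gene Psmc5 (r = 0.922). Lig4 was most like Maged1 (r = 0.922), the prion protein gene Prnp (r = 0.909) and the signal peptidase subunit gene Spcs3 (r = 0.906). Pms2 was most like Inpp5d (r = 0.875) and Nt5dc2 (r = 0.816), and the best match of Trp53bp1 was an unnamed intergenic transcript (r = 0.874). These are the highest of many correlations, the arrays share slides and scaling, and the values are descriptions only.

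Promoters of Apex1 and Msh6 are shown because both genes stood far higher on slide 2. RefSeq promoter windows of GRCm38.p6, 250 bases before to 50 bases after an annotated start, were at hand for 6 of the 7 members. Exo1 had no window and could not be searched. Searched on both strands, the letters TTTCCCGC, which E2F factors can bind, occurred in the Msh6 window alone of these 6. They occurred in 1.07% of 32851 windows. The other E2F letters TTTGGCGC and TTTCGCGC occurred in none of the 6, and in 0.514% and 0.323% of all windows. CACGTG, the E-box that Myc can bind, began at bases 227, 251 and 272 of the Apex1 window. It occurred in no other member window searched, and 7.15% of all windows held it. CCAAT was found in the windows of Apex1, Msh6 and Pms2 and in 37.4% of all. With the motif in capitals, the stretch chr14:50924889-50924948 before the Apex1 start and the stretch chr17:87975053-87975082 after the Msh6 start (GRCm38.p6, plus strand) read:

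Apex1: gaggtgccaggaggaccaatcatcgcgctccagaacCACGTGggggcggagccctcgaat
Msh6: cctcctcccgacTTTCCCGCcagcggcggc

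A match of letters is a description of the sequence and shows neither a bound site nor a cause of the slide difference.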

How the data were processed

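The authors deposited scanner files with the intensity of every spot, which per the file headers came from Agilent Feature Extraction 10.7.3.1. This intensity was background-subtracted and detrended within an array and not normalized between arrays. The authors also deposited a table of log2 values, which served as an alternative within slides. For samples on slide 2 alone, limma is named in the submitters' processing notes. Probe positions are those of mm9, per the file headers.

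Control spots and flagged spots were left out, spots of a probe were averaged, and the analysis used log2 processed intensity relative to the 75th percentile of each array. That percentile was 576 to 851 on the arrays of slide 1 and 596 to 990 on those of slide 2. A probe was kept, as 32881 of 55681 were, when 4 or more of 16 arrays had it well above background. One limma model (limma 3.58.1, R 4.3.3) gave each of the 4 groups a mean, and contrasts gave the genotype difference within slides, over both, and between slides, and the slide difference, with Benjamini-Hochberg adjustment over all kept probes. The number of arrays limits the precision. Arrays of a group correlated with r between 0.980 and 0.996 over probes, which are not independent replicates.

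A gene on a list was read by its brightest probe. Named are all member probes, direct partners of members, up to 3 genes per pathway list that passed the threshold over both slides with the widest differences, up to 2 such genes per marker list, and the 3 genes most like each member, and some genes that this rule takes are not reported here. The set of GT-repeat probes was taken after values were seen. The members and lists were chosen with earlier results of these data known. Alternatives were other background correction, scaling, filters, probe summaries, array weights, slide blocks and leaving out each array.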

Additional observations from a re-analysis of the deposited data

Results flagged for a closer look

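The Ung probe on deficient slide 1 replicate 12 stood at 5.61 on the log2 scale, apart from the other 3 arrays of its group, which lay between 5.33 and 5.37. The gap was 0.86 of the group's whole range, above Dixon's critical value for a group of 4. It was 1 of 36 groups of member probes looked at, and chance alone flags about 1 group in 20. The 35 other GT-repeat probes also stood higher on this array. Their median, with slide means subtracted, was 0.007 there and -0.27, -0.20 and -0.26 on deficient replicates 9, 11 and 10 of slide 1.

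For Lig4 the genotype difference was not the same on the 2 slides: the slide 2 difference minus the slide 1 difference was -0.66 by the interaction term of limma (SE 0.16, limma adjusted p = 0.0188), with 4 of 4 deficient arrays below every wild-type array on slide 2 and the groups mixed on slide 1.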

How the results depend on the processing

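Of 1186 values of member probes under other settings, 1159 kept their side of the threshold with no reversal of a call, 59 of these with a change of sign while not called, 19 lost the call, 6 gained one and 2 reversed. The number of member probes called over both slides was 1, and 2 with normexp background, with array weights and in the authors' value table (1 to 2 when single arrays were left out). On slide 1 it was 1, and 0 with median scaling, quantile normalization, no filter, array weights, the authors' value table or slide 1 fitted alone (0 to 1 when single arrays were left out). On slide 2 it was 1, 0 with median scaling and 2 with array weights. The count for the difference between the slides fell from 1 to 0 with median scaling. Between the slides Ung reversed to -0.13 after quantile normalization and Lig4 to -0.23 (limma adjusted p = 0.0471) with median scaling. The cause of these changes was not tested, other than that fewer arrays or more probes entered some fits. The replicate numbers 1, 2 and 3 shared on slide 2 gave no clear pairing of the samples. Deviations of same-numbered arrays had r of 0.014, 0.097 and 0.062 over probes, beside -0.159 to 0.074 for other pairs. Each of these arrays but deficient replicate 3 was most like its own number, so whether the numbers pair samples is left undecided. With the replicate block on slide 2 the count was 0, with Lig4 at -0.55 (limma adjusted p = 0.0505). That fit called 1600 probes, beside 2454 in the model of all 16 arrays. It used replicates 1, 2 and 3 of slide 2 alone, without deficient replicate 4 and wild-type replicate 5. How much of the change came from the block and how much from fewer arrays was not tested. Of 448 values of the named pathway genes 98 lost the call and none reversed. All member spots were well above background.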
